A study of Homo sapiens with 4 samples.

Results

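NUDT21, CPSF6 and CPSF7 encode the subunits of the mammalian cleavage factor I complex (CFIm), and their own poly(A) sites were followed here in esophageal squamous cell carcinoma (ESCC) cells given l-lactate. PAS-seq reads polyadenylated transcripts at the 3′ end, and the authors joined the poly(A) sites it finds into PAS clusters (PACs). A PAC was taken as a member where its dominant site, the position with the most tags, lay in the GENCODE 44 span of a member gene on the same strand, which gave 9 of 17627 PACs and 3 of the 11264 genes with a PAC. NUDT21 had 3 PACs, CPSF6 had 5 and CPSF7 had 1, and they were numbered along each gene from 5′ to 3′. Both lines used, KYSE30 and TE-1, are established from human ESCC and carry no introduced allele. Each gave 1 library from cells that had received l-lactate, at 20 mM and over 24 h by the study's account, and 1 control library labelled PBS. The cell line tags of the controls read KYSE32 and TE-3, whereas the titles and the study name the same lines as the treated samples, and the titles were followed. Each condition of a line is 1 library, so no spread between cultures can be given within a line and the only spread available is that between the lines.

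CFIm is built from a dimer of NUDT21 (also called CFIm25), which binds the UGUA motif upstream of a poly(A) site, and the larger subunits CPSF6 (CFIm68) and CPSF7 (CFIm59), which are related to each other and carry the arginine and serine rich stretches that contact the rest of the 3′ end processing machinery. Loss of NUDT21 or CPSF6 is known to move many genes from distal to proximal poly(A) sites. A longer 3′ UTR keeps more binding sites for miRNAs and RNA-binding proteins, while the protein encoded stays the same.

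Library depth was between 7174991 and 10393799 tags, of which the listed PACs held 92.5% to 93.1%. The lowest PAC listed in a library had 8 to 11 tags. Of 13 epithelial and squamous markers, 4 were listed in all libraries and 5 (KRT5, KRT14, TP63, SFN and DSG3) in none. The list summed to 3286 to 3449 TPM in KYSE30 and 1432 to 1516 TPM in TE-1. KRT8 gave the largest part, with 2229 TPM with l-lactate and 2154 TPM in the control in KYSE30, and 969 and 1004 TPM in TE-1. KRT6A and DSC3 were listed in KYSE30 only and KRT17 in TE-1 only. CDH1 stood at 228 and 204 TPM in KYSE30 and at 1.30 and 0 TPM in TE-1. Of 8 markers of immune, stromal and endothelial cells, 6 were listed in no library, and the list summed to 3.5 to 20.1 TPM. PTPRC, CD3E, COL1A2, COL3A1, PECAM1 and VWF are those at 0.

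All sites are given on GRCh38 and GENCODE 44. NUDT21 (ENSG00000167005.14) lies at chr16:56429133-56452199 on the minus strand and its 3 PACs lie in the 3′ UTR in exon 7, the last exon of the MANE Select transcript. Cleavage at the dominant sites of PAC 1, PAC 2 and PAC 3 keeps 88, 1034 and 3572 nt of a 3′ UTR of 3579 nt. CPSF6 (ENSG00000111605.18) lies at chr12:69239569-69274358 on the plus strand. Its PAC 1 lies in an intron, and PAC 2 to PAC 5 lie in exon 10, the last exon of the MANE Select transcript, keeping 432, 2023, 3332 and 4845 nt of a spliced 3′ UTR of 4850 nt. CPSF7 (ENSG00000149532.16) lies at chr11:61402641-61430031 on the minus strand, and its PAC keeps 1980 of the 1981 nt of its 3′ UTR, in exon 10, also the last. The PACs with most tags were thus near the stop codon and at the far end of the 3′ UTR in NUDT21 and CPSF6, and at the far end alone in CPSF7. A same-strand gene, ENSG00000288725, has exons over PAC 1 and PAC 2 of NUDT21 but not PAC 3, so tags of the former PACs could be of either gene.

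The 30 bases ending at the main cleavage sites are shown here because they hold the poly(A) signals of these sites. They are in the sense of the mRNA, read from GRCh38, with the poly(A) hexamer (AATAAA or ATTAAA) and each TGTA (UGUA in RNA) in capitals.
NUDT21 PAC 1, dominant site, chr16:56432624-56432653, minus strand: cagTGTAgAATAAAtgtggtagaaaagttt
NUDT21 PAC 1, downstream site, chr16:56432422-56432451, minus strand: ttaatttctcATTAAActtctaaaattctt
NUDT21 PAC 2, chr16:56431678-56431707, minus strand: aaatttgggggAATAAAaaatattagagca
NUDT21 PAC 3, chr16:56429140-56429169, minus strand: tttattgtcatttcAATAAAaaatatttga
CPSF6 PAC 2, upstream site, chr12:69269642-69269671, plus strand: tctgAATAAAgcaaatctgcataaatggta
CPSF6 PAC 2, dominant site, chr12:69269911-69269940, plus strand: gtagtgtTGTAATAAActgtttaatggggc
CPSF6 PAC 2, downstream site, chr12:69270091-69270120, plus strand: ttgcgttcagtgaATTAAAcatagtaatta
CPSF6 PAC 5, chr12:69274324-69274353, plus strand: tctTGTAttgaaAATAAAacaaacttttga
CPSF7, chr11:61402730-61402759, minus strand: aattgTGTAATAAActtgatgacgctgtca

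The 8 member PACs in a 3′ UTR were compared with all 13687 PACs in a 3′ UTR, each by its dominant site and on the transcribed strand only. AATAAA lay within the last 50 nt in 6 of the 8 and in 66.6% of all. TGTA lay within the last 100 nt, the window set for it, in 6 of the 8 and in 58.0% of all. Within the last 30 nt, the stretch printed above for the main sites, it lay in 5 of the 8 and in 17.0% of all. The shorter window was not among the settings, so its count is a description and not a test. The 5 PACs with TGTA in the last 30 nt include CPSF6 PAC 4, where TGTA ends on the site itself and which had at most 25 tags in a library. The main sites of the paralogues CPSF6 and CPSF7 both carry TGTAATAAA, in which the last base of TGTA is the first of the hexamer. This string lay within 50 nt of the site in 2 of the 8 and in 1.64% of all. It was read from these same sites, so its count among the members describes them and is no test of enrichment. At the dominant site of NUDT21 PAC 1, TGTA and the hexamer are separated by a single base. In NUDT21 PAC 3 the nearest TGTA ends 69 nt before the site, and PAC 2 has none in its 100 nt. The downstream site of CPSF6 PAC 2 has ATTAAA and no TGTA in its 100 nt. These are matches of letters and not measurements of binding.

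The level of each gene was the sum of its PACs in TPM, the unit in which the authors scaled tags to the total of the library. An mRNA gives its tags at its 3′ end, so the levels of the genes can be set side by side with no correction for length.

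**Figure D1:**
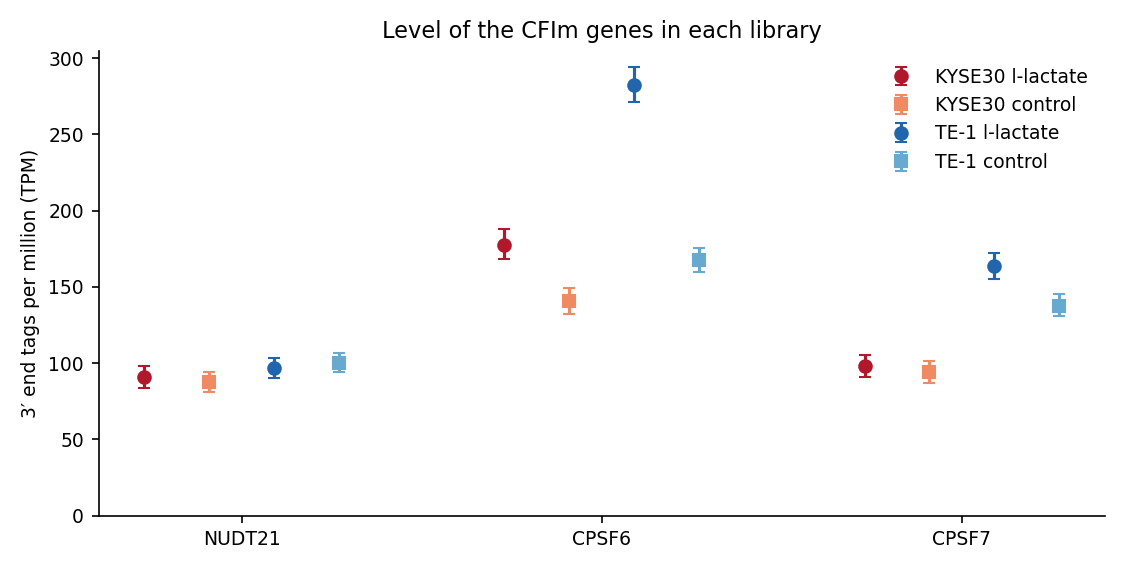
Level of NUDT21, CPSF6 and CPSF7 in TPM (tags scaled to the library total) in each of the 4 libraries, with 95% Poisson intervals that cover counting error only. CPSF6 was the highest of the genes in every library and reached 283 TPM in TE-1 cells with l-lactate, and NUDT21 stayed between 87.5 and 100.3 TPM.

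CPSF6, the larger of the RNA-contacting subunits, had the highest level of the CFIm genes in every library and the largest difference with l-lactate. It stood at 178 TPM with l-lactate against 140.5 TPM in the control in KYSE30, and at 283 and 168 TPM in TE-1. Both l-lactate libraries were above both controls, and TE-1 with l-lactate stood apart from the other libraries. The level with l-lactate was 1.27-fold that of the control in KYSE30 (95% interval 1.16 to 1.37) and 1.68-fold in TE-1 (1.58 to 1.79). These intervals come from an exact binomial split of the tags, cover counting error only and do not overlap, and whether the effect differs between the lines could not be tested with 1 library per condition. The log2 fold was 0.55 ± 0.29 (SD, n = 2 lines). In the limma fit over 9132 genes, with the line as a block, CPSF6 had a coefficient of 0.54 with a standard error of 0.14 and a Benjamini-Hochberg adjusted p of 0.667, so the difference did not pass the test. In bulk RNA, a different level per cell and a different mix of cells cannot be told apart.

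CPSF7, the paralogue that takes the same place in the complex, stood at 98.1 TPM with l-lactate against 94.1 TPM in the control in KYSE30, and at 164 and 138 TPM in TE-1. The libraries separated by line, with both TE-1 libraries above both of KYSE30. With l-lactate it was 1.04-fold the control in KYSE30 (0.94 to 1.16) and 1.19-fold in TE-1 (1.10 to 1.28), and the counting interval in KYSE30 includes no difference. The log2 fold was 0.15 ± 0.13 (SD, n = 2 lines), with an adjusted p of 0.768 in the limma fit.

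NUDT21, the UGUA-binding subunit, was the most even of the CFIm genes. It stood at 90.7 TPM with l-lactate against 87.5 TPM in the control in KYSE30, and at 96.8 and 100.3 TPM in TE-1. All libraries lay within a narrow range, and the treatments pointed in opposite directions in the lines. The fold with l-lactate was 1.04 in KYSE30 (0.93 to 1.16) and 0.965 in TE-1 (0.879 to 1.06). Both intervals include no difference, and together they reach from 0.879-fold to 1.16-fold. The limma coefficient was 0.0001 with a standard error of 0.11.

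None of the 3 genes passed the limma test for l-lactate, as none of the 9132 genes tested did (0%, with 676 genes at an unadjusted p under 0.05). By size alone, CPSF6 was at least 1.5-fold higher with l-lactate in TE-1, as were 2.6% of genes there. No member reached this in KYSE30, where 1.95% of genes did. At 2-fold no member passed in either line.

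**Figure D2:**
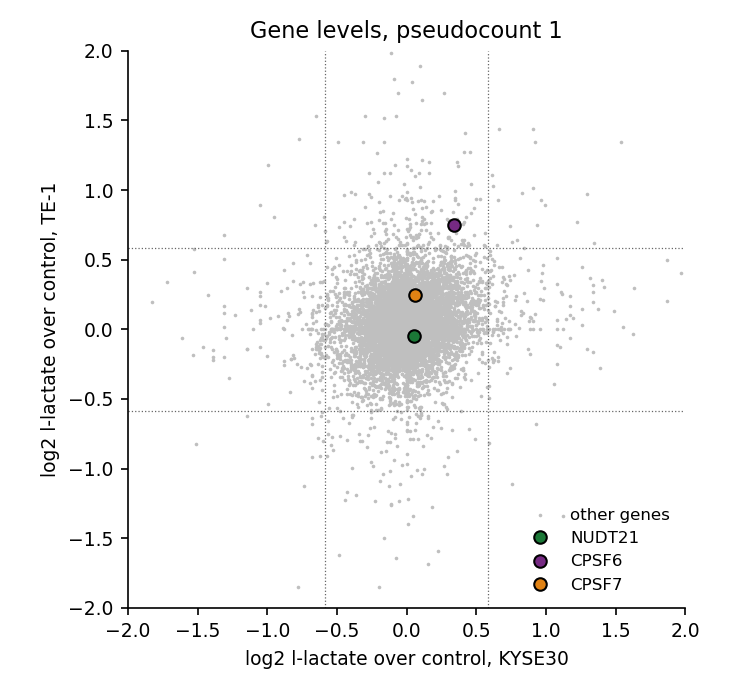
Log2 ratio of l-lactate to control in KYSE30 (horizontal) and TE-1 (vertical) for genes with a mean of at least 5 TPM, with a pseudocount of 1, the CFIm genes in colour and 1.5-fold as dotted lines. CPSF6 lies at 0.34 and 0.75, CPSF7 at 0.06 and 0.25 and NUDT21 at 0.05 and -0.05, and 68 genes lie outside the axes.

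Between the lines, CPSF6 and CPSF7 were lower in KYSE30 than in TE-1. CPSF7 was 0.60-fold with l-lactate (0.547 to 0.657) and 0.683-fold in the controls (0.623 to 0.748), a log2 difference of -0.64 with a standard error of 0.11 and an adjusted p of 0.00782 in the limma fit. CPSF6 was 0.629-fold with l-lactate (0.587 to 0.673) and 0.837-fold in the controls (0.775 to 0.904), a log2 difference of -0.46 with a standard error of 0.14 and an adjusted p of 0.0428. The call for CPSF6 was lost with no filter on low genes (adjusted p = 0.0958), with a pseudocount of 0.1 (0.0651) and without treatment as a block (0.215). The difference was larger between the l-lactate libraries than between the controls. NUDT21 differed by -0.14 with a standard error of 0.11, and did not pass (adjusted p = 0.283). So 2 of the 3 genes were called lower in KYSE30, where 34.1% of all genes were. CPSF7 alone was past 1.5-fold, as were 26.4% of genes. The replicates of a line here are its treated and control libraries, not separate cultures of 1 condition. These p-values rest only on the spread between these samples, which limma moderated over all genes tested.

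The order of the levels was CPSF6, CPSF7 and NUDT21 in every library. CPSF6 exceeded CPSF7 by 1.49-fold in the KYSE30 control (1.35 to 1.64) and by 1.22-fold in the TE-1 control (1.14 to 1.31), and by 1.81-fold (1.65 to 1.99) and 1.73-fold (1.62 to 1.85) with l-lactate. CPSF7 and NUDT21 did not differ beyond counting error in KYSE30, where CPSF7 was 1.08-fold NUDT21 in the control (0.965 to 1.20) and 1.08-fold with l-lactate (0.971 to 1.20), whereas in TE-1 it was 1.37-fold (1.27 to 1.49) and 1.69-fold (1.55 to 1.84). CPSF6 made up 59.9% of the tags of CPSF6 and CPSF7 together in the KYSE30 control and 64.4% with l-lactate, a difference of 4.55 percentage points (1.43 to 7.67, Newcombe interval). In TE-1 it made up 54.9% and 63.4%, a difference of 8.44 points (6.12 to 10.7). The sum of CPSF6 and CPSF7 was 2.68-fold NUDT21 in the KYSE30 control, 3.04-fold in KYSE30 with l-lactate, 3.05-fold in the TE-1 control and 4.61-fold in TE-1 with l-lactate. These are ratios of mRNA ends and not of protein.

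The division of a gene's tags among its PACs was described beside its level. It was taken as the share of the gene's tags that fell in each PAC. A share can differ because another PAC of the gene differs, and it does not measure the choice of site itself.

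**Figure D3:**
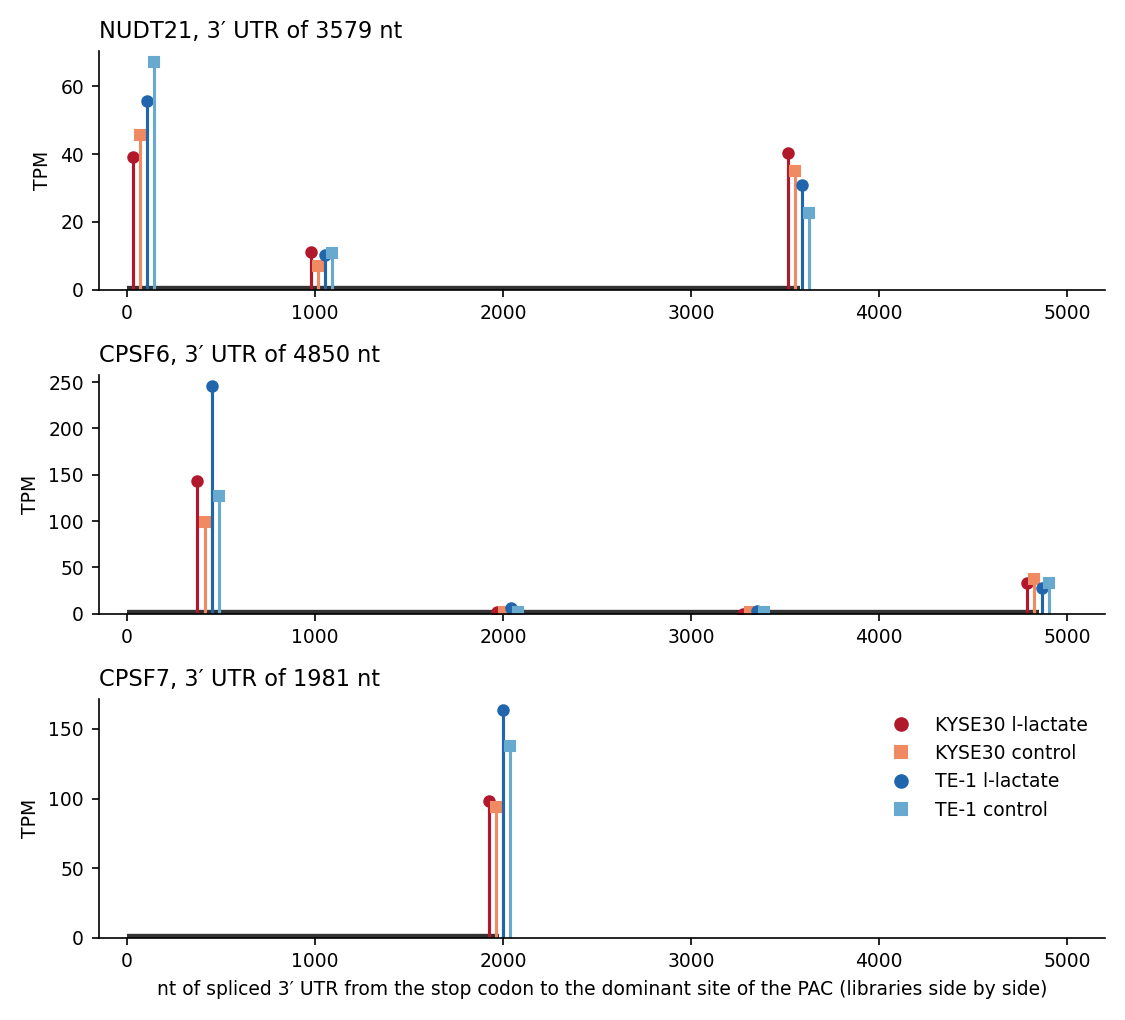
TPM of each PAC in the 3′ UTR, drawn at the nt of spliced 3′ UTR that cleavage at its dominant site keeps, with the 3′ UTR as a black bar and the 4 libraries side by side. NUDT21 and CPSF6 have a main PAC near the stop codon and another at the far end, with TPM at NUDT21 PAC 3 from 22.5 to 40.4, and CPSF7 has its single PAC at the far end. The intronic PAC of CPSF6 is not drawn.

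In NUDT21, the share of the proximal PAC 1 was lower and that of the distal PAC 3 higher with l-lactate in both lines. Tags of the overlapping same-strand gene, if any, would count in PAC 1 and PAC 2 in all values of NUDT21 given here. PAC 1 held 43.0% of tags with l-lactate (95% Wilson interval 39.3% to 46.8%) against 52.0% in the control (48.2% to 55.8%) in KYSE30, and 57.4% (54.0% to 60.8%) and 66.8% (63.9% to 69.6%) in TE-1. The difference was -8.99 percentage points in KYSE30 (-14.3 to -3.56) and -9.39 in TE-1 (-13.8 to -4.95), a mean of -9.19 ± 0.28 points (SD, n = 2 lines). The sizes were nearly equal in the lines although the starting shares were not.

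PAC 3 of NUDT21, which keeps almost the whole 3′ UTR, held 44.5% with l-lactate (40.8% to 48.4%) against 39.8% in the control (36.2% to 43.7%) in KYSE30, and 32.0% (28.9% to 35.2%) and 22.4% (20.01% to 25.1%) in TE-1. The difference was 4.70 points in KYSE30, where its interval includes 0 (-0.665 to 10.03), and 9.52 points in TE-1 (5.45 to 13.6). PAC 2 took up the rest of the difference in KYSE30, with 12.4% against 8.15% (a difference of 4.29 points, 0.983 to 7.62), and differed by -0.128 points in TE-1 (-2.92 to 2.75). Weighted by tags and taken at the dominant sites, the mean 3′ UTR of NUDT21 was 1758 nt with l-lactate against 1553 nt in the control in KYSE30, and 1302 and 971 nt in TE-1.

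As levels, NUDT21 PAC 1 stood at 39.0 TPM with l-lactate against 45.5 TPM in the control in KYSE30, and at 55.6 and 67.1 TPM in TE-1. PAC 3 stood at 40.4 and 34.9 TPM in KYSE30 and at 30.9 and 22.5 TPM in TE-1. The differences of PAC 1 and PAC 3 were opposite in sign, and their sum with PAC 2 is the even gene level given above. PAC 2 was between 7.14 and 11.3 TPM.

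In CPSF6 the directions were the other way round, with a higher share of the proximal PAC 2 and a lower share of the distal PAC 5 with l-lactate in both lines. PAC 2 held 80.4% with l-lactate (78.1% to 82.5%) against 70.3% in the control (67.4% to 73.0%) in KYSE30, and 86.9% (85.5% to 88.2%) and 76.0% (73.9% to 77.9%) in TE-1. The difference was 10.1 percentage points in KYSE30 (6.59 to 13.6) and 10.9 in TE-1 (8.50 to 13.3), a mean of 10.5 ± 0.56 points (SD, n = 2 lines). PAC 5 held 18.4% (16.4% to 20.7%) and 26.7% (24.2% to 29.5%) in KYSE30, and 9.98% (8.85% to 11.2%) and 19.7% (17.9% to 21.7%) in TE-1. Its difference was -8.32 points in KYSE30 (-11.8 to -4.90) and -9.74 in TE-1 (-12.0 to -7.54).

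The higher level of CPSF6 with l-lactate lay in PAC 2. It stood at 143 TPM with l-lactate against 98.7 TPM in the control in KYSE30, and at 246 and 127 TPM in TE-1, which is 1.45-fold (1.31 to 1.59) and 1.93-fold (1.80 to 2.07). PAC 5 stood at 32.8 and 37.6 TPM in KYSE30 and at 28.2 and 33.1 TPM in TE-1, which is 0.872-fold (0.730 to 1.04) and 0.853-fold (0.720 to 1.01). Both intervals of PAC 5 just include no difference. The tag-weighted mean 3′ UTR of CPSF6 at the dominant sites was 1264 nt with l-lactate against 1681 nt in the control in KYSE30, and 936 and 1372 nt in TE-1.

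The minor PACs of CPSF6 had few tags. PAC 3 had 15 tags with l-lactate against 14 in the control in KYSE30, and 50 and 25 tags in TE-1. PAC 4 was not listed in KYSE30 with l-lactate and had 17 tags in its control, and it had 25 and 18 tags in TE-1. PAC 1, in the intron before the last exon, was listed in the TE-1 control only, with 32 tags or 1.83% of the gene (1.30% to 2.58%). A PAC not listed was counted as 0, which in these tables means below the listing threshold rather than absent.

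**Figure D4:**
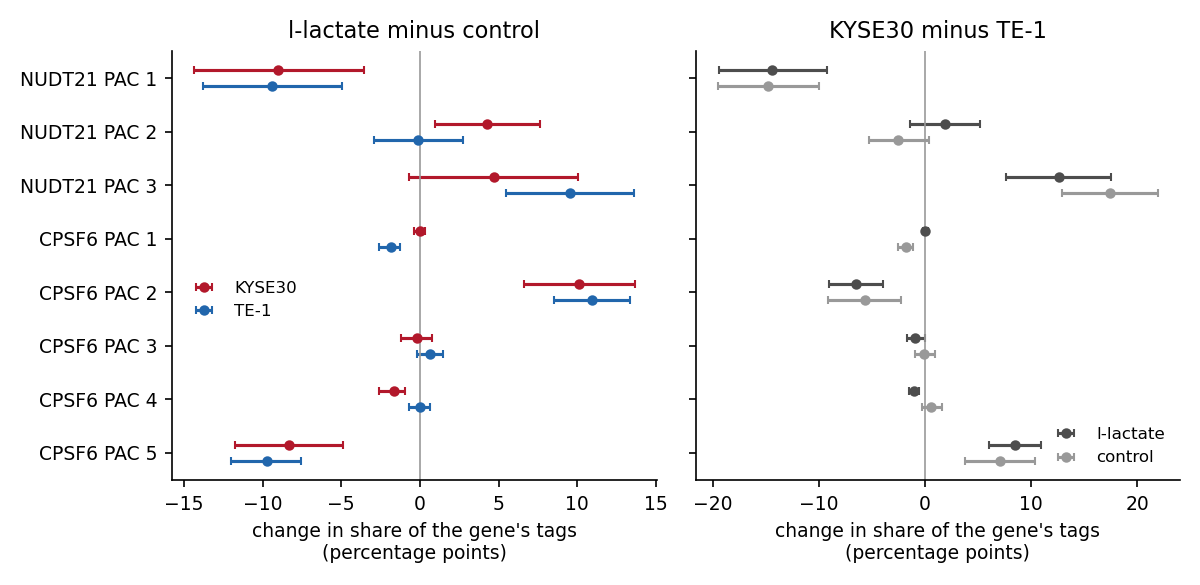
Difference in the share of the gene's tags held by each PAC of NUDT21 and CPSF6, in percentage points, l-lactate minus control in each line (left) and KYSE30 minus TE-1 at each treatment (right), with 95% Newcombe intervals for counting error. NUDT21 PAC 1 and CPSF6 PAC 2 differ with l-lactate in opposite directions, by -8.99 and 10.1 points in KYSE30 and -9.39 and 10.9 in TE-1.

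None of these shares passed the limma test for l-lactate over 7118 PACs of genes with several PACs, in which no PAC was called (0%, with 177 PACs at an unadjusted p under 0.05). CPSF6 PAC 2 had a logit coefficient of 0.64 with a standard error of 0.14 and an adjusted p of 0.665, the same adjusted p as CPSF6 PAC 5 (-0.64), NUDT21 PAC 1 (-0.38) and NUDT21 PAC 3 (0.34). With only PACs listed in all 4 libraries, where limma pooled the variance almost wholly over PACs and the degrees of freedom of the test were 105 in place of 2.08, 6.7% of 4804 PACs were called, and CPSF6 PAC 2 (adjusted p = 0.0263) and PAC 5 (adjusted p = 0.0141) were among them, while NUDT21 PAC 1 (0.195) and PAC 3 (0.266) were not. The coefficient of CPSF6 PAC 2 was smaller in that fit, at 0.59 with a standard error of 0.18. By size, CPSF6 PAC 2 was the only 1 of the 8 PACs tested whose share differed by at least 10 points the same way in both lines, as did 1.87% of all PACs tested.

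Between the lines, the share of the distal PAC of NUDT21 was higher in KYSE30 than in TE-1, with the same limit from the overlapping gene. PAC 3 held 12.6 points more of the gene in KYSE30 with l-lactate (7.60 to 17.5) and 17.4 points more in the controls (12.9 to 21.9), and the difference for PAC 1 was -14.4 (-19.5 to -9.30) and -14.8 points (-19.6 to -10.02). In value these differences were larger than those with l-lactate. For CPSF6, PAC 5 held 8.45 points more in KYSE30 with l-lactate (6.05 to 10.9) and 7.02 points more in the controls (3.79 to 10.3). The share of the distal PAC was thus higher in KYSE30 for both genes. None of the 8 PACs passed the limma test between the lines, where 13.6% of 7118 PACs did. The adjusted p was 0.164 for NUDT21 PAC 3 and 0.145 for PAC 1, and 0.205 for CPSF6 PAC 5. With only PACs listed in all 4 libraries, and the same rise in degrees of freedom, 45.1% of PACs were called, NUDT21 PAC 1 (0.00345) and PAC 3 (0.000926) and CPSF6 PAC 2 (0.0255) and PAC 5 (0.00873) among them.

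The dominant site of each PAC was the same in every library that listed it. This holds for the 6 members with more than 5 TPM in all libraries, and for 90.4% of the 8909 such PACs of the series. NUDT21 PAC 3 and CPSF6 PAC 5 were narrow, with 96.2% to 99.3% and 94.04% to 99.6% of their tags at the dominant site. In CPSF7 the dominant site held 65.1% with l-lactate against 63.9% in the control in KYSE30, and 68.3% and 68.9% in TE-1, and its quantile positions did not move.

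The proximal PACs join several cleavage sites, NUDT21 PAC 1 over 205 nt and CPSF6 PAC 2 over 466 nt. In NUDT21 PAC 1, whose sites are 88 and about 290 nt after the stop codon, the dominant site held 54.3% of the PAC with l-lactate against 62.7% in the control in KYSE30 (a difference of -8.44 points, -16.1 to -0.645), and 60.3% and 64.1% in TE-1 (-3.83 points, -9.51 to 1.81). As a share of the gene, this site alone differed by -9.27 points in KYSE30 (-14.1 to -4.39) and -8.22 in TE-1 (-12.6 to -3.77), which is about the whole difference of PAC 1.

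In CPSF6 PAC 2 the dominant site, 432 nt after the stop codon, held 55.4% of the PAC with l-lactate against 53.2% in the control in KYSE30 (2.21 points, -2.50 to 6.92) and 51.4% and 46.9% in TE-1 (4.50 points, 1.05 to 7.93). The downstream edge of the tags, the position past which at most 10% of them lie, was 171 nt further downstream with l-lactate in both lines. It moved from beside the dominant site to the downstream site shown above, which keeps 612 nt. Such a move of over 24 nt downstream in both lines was seen in 0.247% of the 8909 PACs, 22 in all, against 6 that moved upstream. Only a PAC wider than 24 nt can show such a move, and the 8909 include narrow PACs. The share among PACs as wide as CPSF6 PAC 2 was not worked out. In KYSE30 the upstream edge of CPSF6 PAC 2 also moved 268 nt downstream, from the upstream site that keeps 163 nt to the dominant site. In TE-1 the upstream edge did not move. So within the proximal PAC the downstream edge of the tags lay further downstream with l-lactate in both lines. Between the PACs, the share lay more with the proximal PAC. How many tags moved is not given by an edge.

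**Figure D5:**
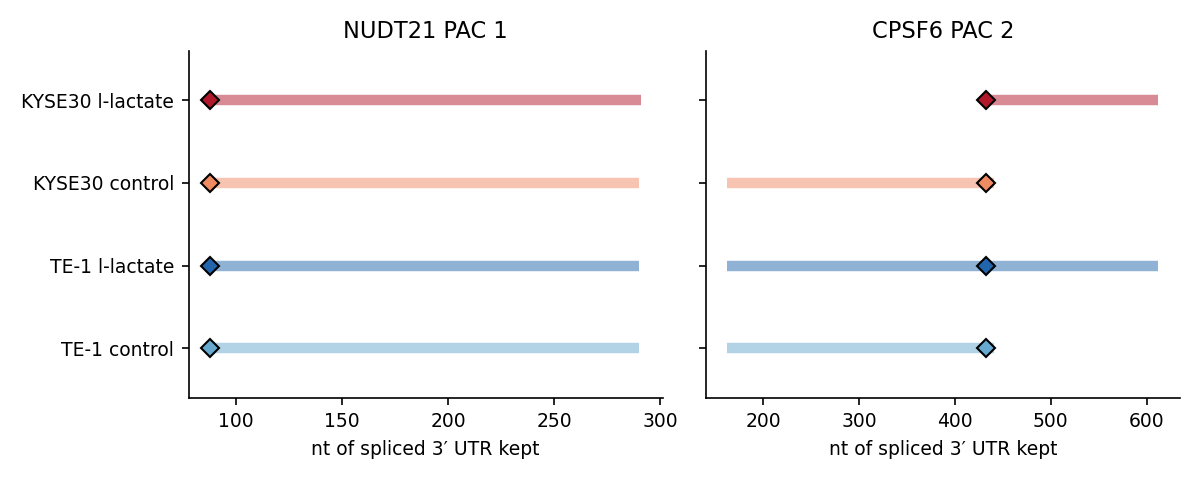
Spread of cleavage within NUDT21 PAC 1 and CPSF6 PAC 2, as nt of spliced 3′ UTR kept, with the dominant site as a diamond and a bar between the positions that leave 10% of the tags on each side. The bar of CPSF6 PAC 2 reaches the site at 612 nt in both l-lactate libraries and ends beside the dominant site at 432 nt in both controls.

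Among 4478 genes with more than 20 TPM in every library, those whose log2 levels, centred over the 4 libraries, were nearest to each member were named by Euclidean distance. For CPSF6 they were RIOX2 at a distance of 0.11, ENSG00000289194 at 0.18 and UBE2D1 at 0.25. For CPSF7 they were MATCAP2 (0.03), PAFAH1B2 (0.05) and FGD5-AS1 (0.06), and for NUDT21 the nearest was USP3 (0.01). No gene lay within 0.1 of CPSF6, against 34 for CPSF7 and 140 for NUDT21. Such counts depend on how much a gene differs among the libraries, and they were not worked out for the other genes. The distance is a description over 4 libraries that also carries their depth.

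Of 20 other genes of 3′ end processing, 17 had a mean of at least 5 TPM. None of the 17 was past 1.5-fold with l-lactate in either line and none passed the limma test for l-lactate. Their median log2 ratio was 0.05 in KYSE30 and -0.01 in TE-1, beside 0.00 and 0.03 over all genes. Between the lines, 5 were called higher in KYSE30 and 7 lower, where 33.9% and 34.1% of all genes were called in these directions. The lower ones included CSTF2T, a subunit of the cleavage stimulation factor (36.5 and 34.1 TPM in KYSE30 against 70.1 and 72.8 TPM in TE-1), PCF11, of cleavage factor II, with a log2 difference of -0.82, the poly(A) polymerase PAPOLA with -0.69 and CPSF2 with -0.67. The higher ones included the phosphatase SSU72 with a log2 difference of 0.94 and CPSF1, the largest subunit of CPSF, with 0.71.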

How the data were processed

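The members and gene lists were chosen with earlier results of these data known. Per the study's methods, the authors captured mRNA, made strand-specific libraries, trimmed reads with FASTX-Toolkit, aligned them to GRCh38 (p14 per the labels) with HISAT2, called poly(A) sites with CAGEr, removed weak sites and joined neighbouring ones. The deposited RPM values, named TPM by the authors, are tags scaled to the library total with no length correction. Tag numbers were recovered by a search for the library total at which the values came closest to whole tags, and 100% were whole within 0.015 tags. Counting intervals (95%) do not cover variation between cultures or amplification.

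Gene levels were log2(TPM + 1), for genes with a mean of at least 5 TPM. PAC shares were logits with 0.5 tags added, for genes with at least 2 PACs and a mean of at least 10 TPM. Both were fitted with limma 3.58.1 in R 4.3.3 with treatment and line as terms, two-sided, with Benjamini-Hochberg adjustment and calls at an adjusted p of 0.05. Treated and control libraries pair by cell line, and their deviations from the treatment means correlated at r = 0.973 over 9132 genes. The fits were tested on simulated data with counting error only, which does not cover variation between cultures or effects that differ between the lines. Named genes were the members, the 3′ end processing genes called between lines (at most 6, by the smaller change) and the 3 nearest genes of each member, of which only the nearest is reported here for NUDT21. Other steps used SciPy 1.17.1 and pandas 2.3.3 in Python 3.11.15.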

Additional observations from a re-analysis of the deposited data

How the results depend on the processing

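With 1 library per line and treatment, a gene or PAC has only 1 spread of its own. It is that of an effect between the lines, or of a line difference between the treatments. The limma fits moderated this spread towards that of all genes or PACs tested, with 4.35 degrees of freedom for genes and 2.08 for PAC shares. The standard errors given are therefore not the spread of the gene or PAC alone. The cause of each change below was not tested beyond what the setting itself removes. For l-lactate, the number of genes called was 0 and was 2 with a pseudocount of 5. The number of PACs called was 0, and 322 when PACs missing from any library were left out (with 105 in place of 2.08 degrees of freedom), where the coefficients of CPSF6 PAC 2 and PAC 5 were 0.59 and -0.66 and passed. The coefficient of NUDT21, 0.0001, changed sign with a pseudocount of 5 (0 when rounded) and with median ratio scaling (-0.0235). Between the lines, the coefficient of CPSF6 no longer passed with a pseudocount of 0.1 (-0.46), with no filter on low values (-0.46) and with no replicate block (-0.46). The number of PACs called between the lines, 969, was 1805 with unlisted PACs at the lowest listed tags and 2169 when PACs missing from any library were left out, where NUDT21 PAC 1 (-0.60) and PAC 3 (0.68) and CPSF6 PAC 2 (-0.46) and PAC 5 (0.54) passed. The block was the line in the tests for l-lactate and the treatment in those between the lines. Leaving it out changed no other call of a member. Genes past 1.5-fold with l-lactate were 178 higher and 184 lower in KYSE30 and 237 and 140 in TE-1. At 2-fold they were 55, 54, 64 and 50, with a pseudocount of 5 they were 67, 52, 87 and 61, and with no filter 398, 479, 482 and 365. Between the lines, 2411 genes were lower and 2467 higher in KYSE30, and 1468 and 1572 at 2-fold. Of the other alternatives, 213 kept their direction and their side of the threshold, kept a count within 1.5-fold, or stayed within the spread. The last kind took 1 line or 1 treatment alone. With 2 values each lies within the SD around their mean by arithmetic, so these could not show a dependence unless a called result reversed. Some changed sign, such as CPSF6 PAC 3 for l-lactate, at -0.14 in KYSE30 alone against 0.12 in the fit. The planned count model on recovered tags was not run. The lowest PAC listed in a library has 8 to 11 tags, and columns cut off in this way were not accepted as its input.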
